A study of Mus musculus with 22 samples.

Results

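Genes for 9 transcription factors that set monocyte and macrophage identity were followed in RNA sequencing data from sorted mouse lung cells: *Spi1*, *Cebpa*, *Cebpb*, *Maf*, *Irf5*, *Irf8*, *Bhlhe40*, *Bhlhe41* and *Runx3*. They were chosen by name, as the members of that group, out of 31116 genes counted in both cell types. All mice carried the SP-C I73T mutation on a C57BL/6 background. SP-C is surfactant protein C, a product of alveolar epithelial cells, and a single gavage of tamoxifen excises a neomycin cassette and so raises the mutant protein, which injures the lung. Ly6Chi monocytes were collected from control mice (n = 4) and from mice 3 d (n = 4) and 14 d (n = 4) after tamoxifen, and SigF+CD11b- alveolar macrophages from control mice (n = 4) and at 3 d (n = 3) and 14 d (n = 3). The labels call the control mice untreated, whereas the study describes the controls of its monocyte sequencing as oil treated mutant mice. Its general description of controls also pools tamoxifen treated mutant mice without the Flp-O recombinase that removes the cassette. Against controls without tamoxifen, effects of the drug itself and of the injury cannot be told apart. Flp-O was expressed from the Rosa26 locus, the animals were adult and homozygous, and the study used both sexes. The cells were sorted from collagenase digests of lavaged and perfused lungs, and the monocyte gate of the study set aside alveolar macrophages, eosinophils, Ly6G+ neutrophils and CD3+ lymphocytes. Whether samples come from separate animals, or a monocyte and a macrophage sample of the same number from the same animal, is not stated in the labels, and p-values measure the spread between these samples only.

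PU.1, the product of *Spi1*, is an ETS family factor that opens enhancers across the whole myeloid lineage. C/EBPα and C/EBPβ work with PU.1, C/EBPα in commitment to the myeloid lineage and C/EBPβ in monocyte survival and in the upkeep of alveolar macrophages. IRF8 directs progenitors towards monocytes and dendritic cells, and IRF5 drives inflammatory cytokine genes. BHLHE40 and BHLHE41 are repressors that bind E-boxes and are known to maintain alveolar macrophage identity and self-renewal. c-MAF, encoded by *Maf*, restrains self-renewal and promotes *Il10* and complement *C1q* genes in tissue macrophages. RUNX3 is best known in cytotoxic lymphocytes and is also used by mononuclear phagocytes.

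The members lie on 5 autosomes of GRCm38. *Spi1* is at chr2:91082390-91115756 and *Cebpb* at chr2:167688915-167690418. *Runx3* is at chr4:135120652-135177990 and *Cebpa* at chr7:35119293-35121928. *Irf5* is at chr6:29526625-29541871, *Bhlhe40* at chr6:108660629-108666925 and *Bhlhe41*, on the minus strand, at chr6:145858243-145865558. *Maf*, also on the minus strand, is at chr8:115682942-115707794 and *Irf8* at chr8:120736358-120756694. All are protein coding, and *Cebpa* and *Cebpb* consist of a single exon. Exons of 6 members share bases with a gene on the other strand, from 51 bases in *Cebpa* to 1280 in *Bhlhe41* (Gm43909), with 312 bases in *Cebpb* (Tmem189), 411 in *Irf5* (Tnpo3), 440 in *Maf* (Gm15655) and 118 in *Bhlhe40* (0610040F04Rik). Whether strand was used in counting is not given in the sources used here, so reads of those bases cannot be assigned with certainty.

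The RefSeq promoter table held windows for 6 of the members. Motifs were searched on both strands in the 250 bases before the start, namely CACGTG, TTCNNNGAA, GAGGAAGT, TGACGTCA and the core of the interferon-stimulated response element. Only the first and second of these were found, and the windows that carry them are shown because these genes had the largest fold changes among the members in monocytes at 3 d. In capitals is the E-box CACGTG, the sequence that BHLHE40 and BHLHE41 bind, in the promoter of *Bhlhe41* (GRCm38.p6, chr6:145865528-145865613, minus strand), where it begins 153 bases before the start, and the STAT site form TTCNNNGAA in the promoter of *Irf8* (chr8:120736147-120736235, plus strand), where it begins 171 bases before the start.
Bhlhe41: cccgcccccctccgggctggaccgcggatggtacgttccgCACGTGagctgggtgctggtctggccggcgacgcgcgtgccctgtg
Irf8: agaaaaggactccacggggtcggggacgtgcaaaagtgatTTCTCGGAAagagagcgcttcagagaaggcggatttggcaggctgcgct
A second TTCNNNGAA, with the letters TTCAGAGAA, begins 153 bases before the *Irf8* start. The starts are those of RefSeq. That of *Bhlhe41* lies inside the gene span given above, so part of its printed window overlaps that span. CACGTG was present in 6.02% and TTCNNNGAA in 7.02% of all 32851 promoters in the table. A match of letters is a description and not a binding site.

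The monocyte libraries held between 15451460 and 28789639 counts each. Macrophage libraries held fewer, between 10692871 and 17074863 in control and 3 d samples and between 4610720 and 6838893 at 14 d. The 3 d monocyte libraries had counts for 40119 to 41134 genes and stood apart from control (24775 to 30865) and 14 d (24829 to 32492). Counts are given as CPM after TMM scaling, which sets libraries to a common total after trimming extreme genes. On that scale the median log2 fold change of genes with a mean log2 CPM above 5 was -0.55 in 3 d monocytes and -0.56 in 14 d macrophages against control, and -0.07 in 14 d monocytes and -0.06 in 3 d macrophages. Changes of well expressed genes are therefore read against these shifts, and values with TMM factors from genes above that level are given where they differ. In addition, the 14 d samples of both cell types carried counts of 4 Y chromosome genes (433 to 3033) and the control and 3 d samples did not (0 to 3), so that sex and the 14 d time point cannot be told apart.

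Control monocytes and control macrophages differed in the factors beside *Spi1*, which did not pass the test. Counts were deposited apart for each cell type, so cell type and any difference in processing cannot be told apart. This limit holds for every comparison between the cell types below. Macrophages had more *Bhlhe41*, *Cebpa*, *Cebpb* and *Bhlhe40*, and monocytes more *Runx3*, *Irf5*, *Maf* and *Irf8*. In a fit over all 22 samples, 8 of the 9 genes were called (adjusted p under 0.05 by edgeR's quasi-likelihood test and fold above 1.5), against 44.2% of all 26692 genes tested, and 4 lay on each side (24.5% of genes tested were higher and 19.7% lower in macrophages). Among well expressed genes 25.1% were higher and 39.9% lower. On the scale of the joint fit, *Bhlhe41* was 1.46 ± 0.63 CPM (SD, n = 4) in monocytes and 136.5 ± 24.04 (SD, n = 4) in macrophages, a log2 difference of 6.54 ± 0.34 (SE; adjusted p = 4.671e-14). Its paralogue *Bhlhe40* differed far less, with 146 ± 32.1 and 295 ± 17.4 CPM and a log2 difference of 1.01 ± 0.28 (adjusted p = 0.003916). *Cebpa* had 13.5 ± 7.65 CPM in monocytes and 763 ± 121 in macrophages (log2 difference 5.82 ± 0.47, adjusted p = 3.43e-09). *Cebpb* had 26.3 ± 12.04 and 1237 ± 225 CPM (5.55 ± 0.38, adjusted p = 8.97e-11). In the other direction, *Irf5* had 1299 ± 205 CPM in monocytes and 88.1 ± 8.27 in macrophages (log2 difference -3.88 ± 0.15, adjusted p = 2.071e-16). *Runx3* had 45.6 ± 26.4 and 2.21 ± 0.89 CPM (-4.37 ± 0.40, adjusted p = 3.963e-09), and *Maf* 20.8 ± 8.95 and 1.99 ± 0.63 (-3.39 ± 0.41, adjusted p = 1.885e-07). *Irf8* differed least among these, with 708 ± 156 and 141.0 ± 13.5 CPM (-2.33 ± 0.21, adjusted p = 8.025e-10). *Spi1* was 742 ± 302 CPM in monocytes and 539 ± 26.8 in macrophages (-0.46 ± 0.31, adjusted p = 0.2421). It was called lower in macrophages without monocyte control replicate 1 (-0.71), with upper quartile scaling and after a correction for GC content, described with the GC content of the members.

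**Figure D1:**
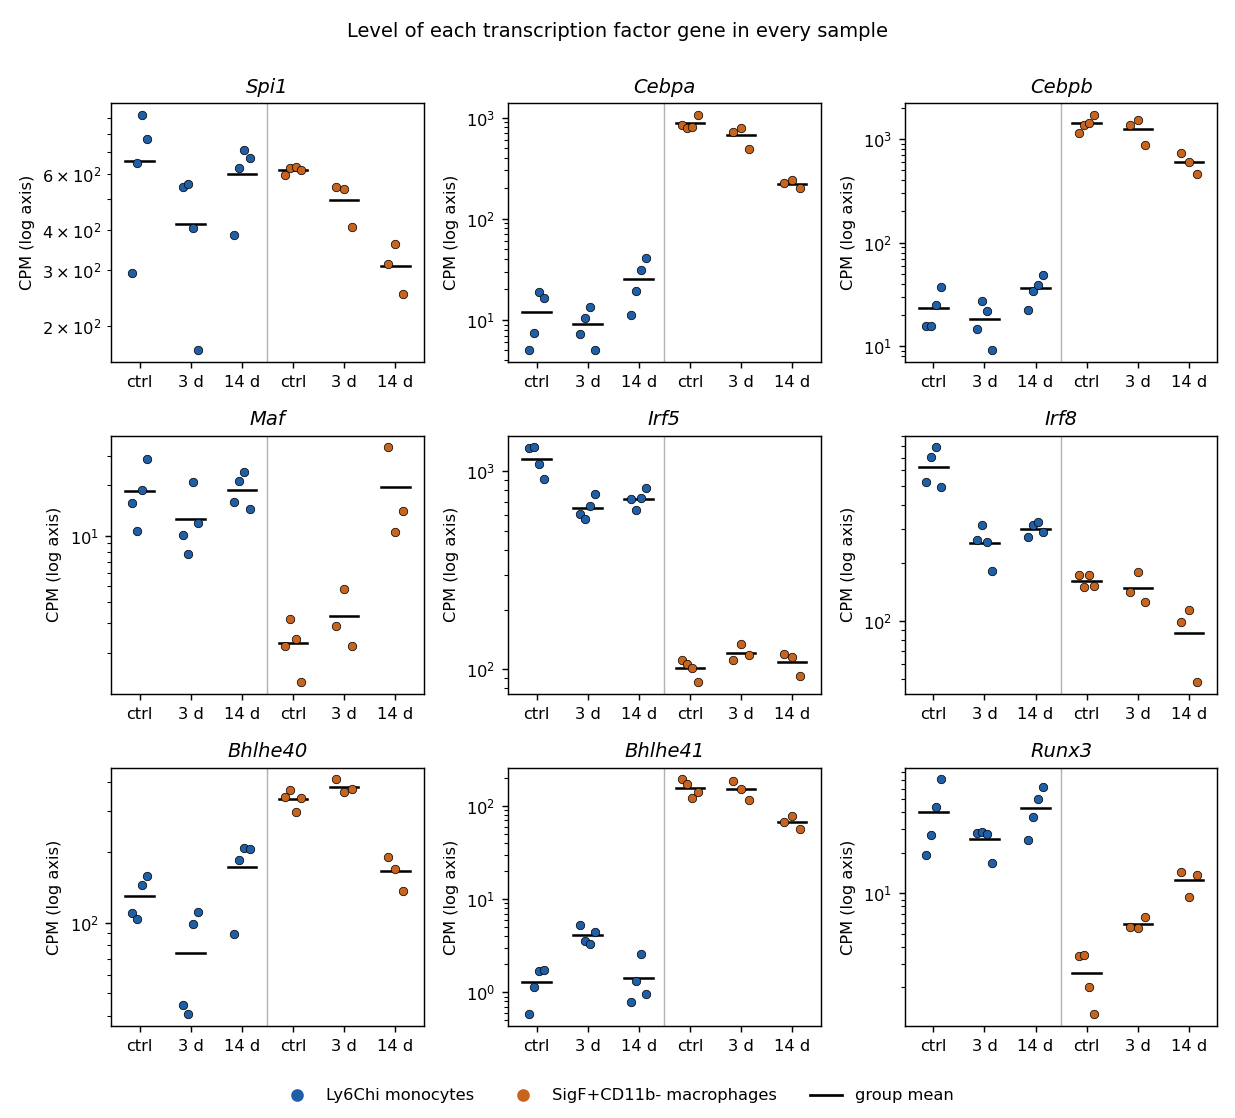
CPM of each gene (log axis, TMM-scaled within each cell type) in every sample, with monocytes in blue, macrophages in orange and bars at group means, for control (ctrl), 3 d and 14 d. *Bhlhe41*, *Cebpa* and *Cebpb* lie far higher in macrophages, *Irf5*, *Irf8* and *Runx3* in monocytes, and macrophage *Maf* reaches 10.6 to 33.9 CPM at 14 d from 1.33 to 3.19 in control.

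Between genes, levels were compared as CPM per kb of exon. In control monocytes *Irf5* (397 ± 66.5, SD, n = 4) and *Spi1* (244 ± 98.9) came first and overlapped. *Irf8* followed at 89.2 ± 20.2, overlapping with *Spi1* and lying apart from *Bhlhe40* (27.6 ± 5.71). *Bhlhe40*, *Cebpb*, *Runx3*, *Cebpa* and *Maf* then formed a series in which every neighbour overlapped, down to 2.24 ± 0.92 for *Maf*, and *Bhlhe41* was last at 0.19 ± 0.082. In control macrophages the order began with *Cebpb* (940 ± 151, SD, n = 4), *Cebpa* (331 ± 46.9), *Spi1* (229 ± 5.796) and *Bhlhe40* (71.9 ± 6.20), with no overlap between neighbours. *Irf5*, *Bhlhe41* and *Irf8* followed at 34.8 ± 3.78, 23.4 ± 4.76 and 22.9 ± 1.77, the last pair overlapping. *Runx3* (0.51 ± 0.22) and *Maf* (0.28 ± 0.093) were last and overlapped. At 14 d *Spi1* (115 ± 20.6, SD, n = 3) had passed *Cebpa* (84.4 ± 7.02) in macrophages, and *Irf5* (37.6 ± 4.95) and *Bhlhe40* (35.3 ± 5.91) overlapped.

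Transcripts of the C/EBP genes and *Spi1* are rich in GC. *Cebpb* is 67.2% GC, above 99.9% of genes, *Cebpa* 62.6% and *Spi1* 58.9%. The 245 expressed genes with at least 60% GC lay lower in monocyte libraries (median log2 deviation -1.07 to 0.015 in control, against genes of middle GC content) than in macrophage libraries (0.465 to 0.493 in control). Over the 304 genes tested with that GC content and a mean log2 CPM above 3, the median log2 difference between control macrophages and control monocytes was 1.26, and -0.14 for 4936 genes of 45 to 55% GC. With a correction for GC content, chosen after seeing the data, the log2 difference fell to 4.48 for *Cebpa* and 3.90 for *Cebpb*, both still called, and that of *Spi1* became -0.97 (adjusted p = 0.002709). The spread of *Spi1* among monocytes ran the same way. Its lowest values, 292 CPM in control replicate 1 and 168 CPM at 3 d in replicate 4, were in the libraries with the lowest deviations of GC-rich genes (-1.07 and -0.923), and its highest, 916 CPM in control replicate 3, in the library with the highest (0.015). *Cebpa* was also lowest in those libraries, at 5.01 and 5.08 CPM. *Cebpb* was lowest at 3 d in replicate 4 (9.13 CPM), but 3 d replicate 1 (14.6 CPM, deviation -0.209) lay below control replicate 1 (15.6 CPM). In control monocytes *Cebpa* was 5.01, 7.37, 18.9 and 16.4 CPM, beside alveolar macrophage marker sums of 895, 915, 1962 and 1926 CPM. The part of GC content or of other cells in these values was not tested.

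**Figure D2:**
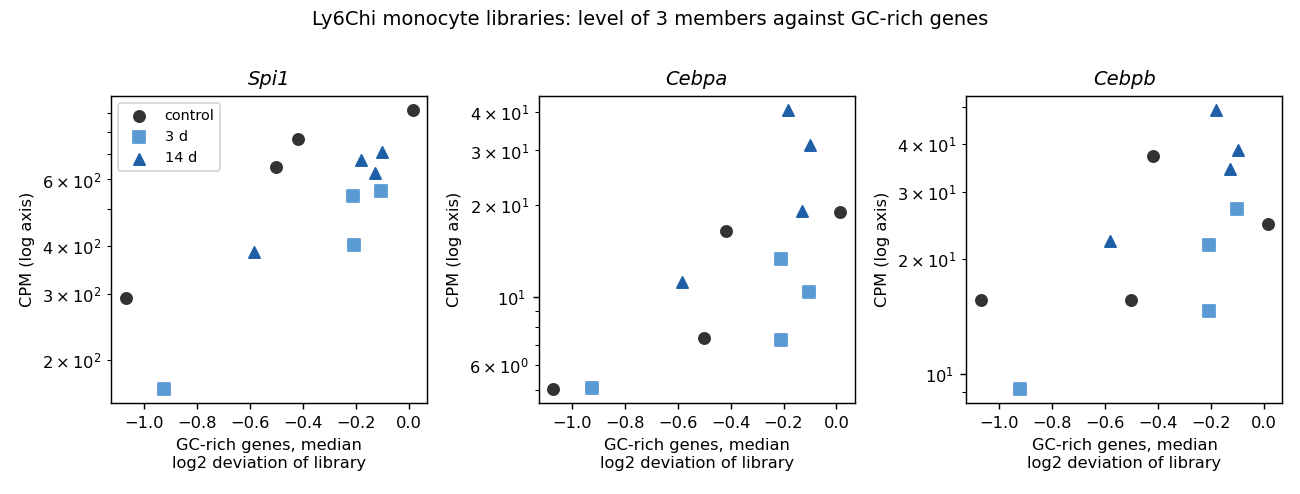
CPM (log axis) of *Spi1*, *Cebpa* and *Cebpb* in the 12 monocyte libraries against the median log2 deviation of GC-rich genes in the library, relative to genes of middle GC content. The points at -1.07 (control replicate 1) and -0.923 (3 d replicate 4) hold the lowest *Spi1* and *Cebpa* values.

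At 3 d *Irf8* and *Irf5* fell and *Bhlhe41* rose, and at 14 d only the pair of interferon regulatory factors still differed from control. Of the 9 members, 3 were called at 3 d, against 51.2% of the 22353 genes tested, and 1 of them was higher (36.8% of genes tested) and 2 lower (14.4%). At 14 d 2 were called, both lower (8.56% of genes tested were called, 3.22% higher and 5.34% lower). Among well expressed genes, 1.15% were higher and 42.0% lower at 3 d, and 4.28% and 12.5% at 14 d. *Irf8* was 524, 705, 791 and 495 CPM in the control samples. It was 263, 314, 258 and 181 CPM at 3 d, and 271, 314, 326 and 289 CPM at 14 d. All 8 samples after tamoxifen lay below all 4 controls, with log2 fold changes of -1.31 ± 0.19 at 3 d (adjusted p = 0.0004252) and -1.07 ± 0.18 at 14 d (adjusted p = 0.001832). With TMM factors from well expressed genes these were -0.79 and -1.01, and both stayed called.

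*Irf5*, the most abundant member in monocytes, was 1301, 1317, 1088 and 909.8 CPM in control samples. It was 608, 572, 669 and 764 CPM at 3 d and 720.0, 638, 727 and 817 CPM at 14 d. Again no sample after tamoxifen reached a control sample. The log2 fold change was -0.82 ± 0.15 at 3 d (adjusted p = 0.0009975) and -0.67 ± 0.15 at 14 d (adjusted p = 0.008911). Its 3 d call was lost with TMM factors from well expressed genes, at -0.30 (adjusted p = 0.0971), whereas the 14 d value of -0.62 kept its call. Library size scaling ended the 14 d call of *Irf5* too, since its -0.56 is under the fold limit. Library size scaling, upper quartile scaling and a stricter filter on low counts also ended the 3 d call of *Irf5* and kept that of *Irf8*.

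*Bhlhe41* was low in control monocytes, at 0.58, 1.13, 1.69 and 1.75 CPM (14 to 43 counts). At 3 d it was 5.24, 3.59, 3.33 and 4.42 CPM (62 to 129 counts), above every control sample, and at 14 d 0.79, 1.33, 2.55 and 0.97 CPM. The log2 fold change was 1.68 ± 0.44 at 3 d (adjusted p = 0.006174), 0.12 ± 0.44 at 14 d (adjusted p = 0.9059) and -1.56 ± 0.44 between 14 d and 3 d (adjusted p = 0.01093). It stayed called at 3 d under all alternatives tried, with log2 fold changes of 1.396 to 2.20. It remained far below the macrophage level. The sum of alveolar macrophage markers was 309 to 1054 CPM at 3 d and 895 to 1962 CPM in control monocytes, and 40119 to 41134 genes were detected at 3 d against 24775 to 30865 in control. The part of either in the *Bhlhe41* values was not tested.

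Between 3 d and 14 d, 4 members were called (46.5% of genes tested), 3 higher (12%) and 1 lower (34.5%). Of well expressed genes 29.9% were higher and 3.0% lower. *Bhlhe40* rose by a log2 fold change of 1.22 ± 0.34 (adjusted p = 0.01127), *Cebpa* by 1.51 ± 0.47 (adjusted p = 0.01795) and *Cebpb* by 0.99 ± 0.36 (adjusted p = 0.03168). *Bhlhe40* was 44.4, 40.6, 99.0 and 112 CPM at 3 d, *Cebpa* 7.23, 10.4, 13.3 and 5.08 CPM, and *Cebpb* 14.6, 27.1, 21.7 and 9.13 CPM. At 14 d these became 89.2, 186, 208 and 207 CPM for *Bhlhe40*, 11.2, 19.1, 31.2 and 40.7 CPM for *Cebpa*, and 22.3, 34.3, 38.6 and 49.1 CPM for *Cebpb*. All 3 genes overlapped between the times, and with TMM factors from well expressed genes only *Bhlhe41* was called. Without 14 d replicate 4 the count fell to 2, *Cebpa* and *Cebpb* no longer passing, and *Cebpb* was also lost without 3 d replicate 1, 3 or 4 or 14 d replicate 3, so that its call held in 7 of 12 such fits. Against control, *Cebpa* at 14 d had a log2 fold change of 1.10 ± 0.46 (adjusted p = 0.1753). The sum of alveolar macrophage markers in monocytes was 309 to 1054 CPM at 3 d and 1059 to 2662 CPM at 14 d. *Cebpa*, *Cebpb* and *Bhlhe40* were higher in control macrophages than in control monocytes, and the part of these markers in their rise was not tested.

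*Spi1*, *Maf* and *Runx3* were called in none of these monocyte comparisons. *Maf* was 10.7 to 28.6 CPM in control, against 7.77 to 20.9 at 3 d, and 14.4 to 24.1 at 14 d, and these ranges overlapped. *Spi1* had a log2 fold change of -0.65 ± 0.38 at 3 d (adjusted p = 0.1596) and of -0.13 ± 0.38 at 14 d (adjusted p = 0.8793). Without control replicate 1, whose *Spi1* value of 292 CPM was the lowest of its group, 6 members were called at 3 d, *Spi1*, *Bhlhe40* and *Runx3* being added, all lower. *Runx3* in control monocytes spread from 19.3 and 27.3 to 44.1 and 70.2 CPM, and the sum of 12 NK and T cell markers in the same samples was 410, 643, 1746 and 1458 CPM. At 3 d *Runx3* was 16.9 to 28.4 CPM beside marker sums of 26.9 to 338 CPM, and at 14 d 24.7 to 61.3 CPM beside sums of 27.1 to 49.7 CPM. The part of these markers in the *Runx3* values was not tested.

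**Figure D3:**
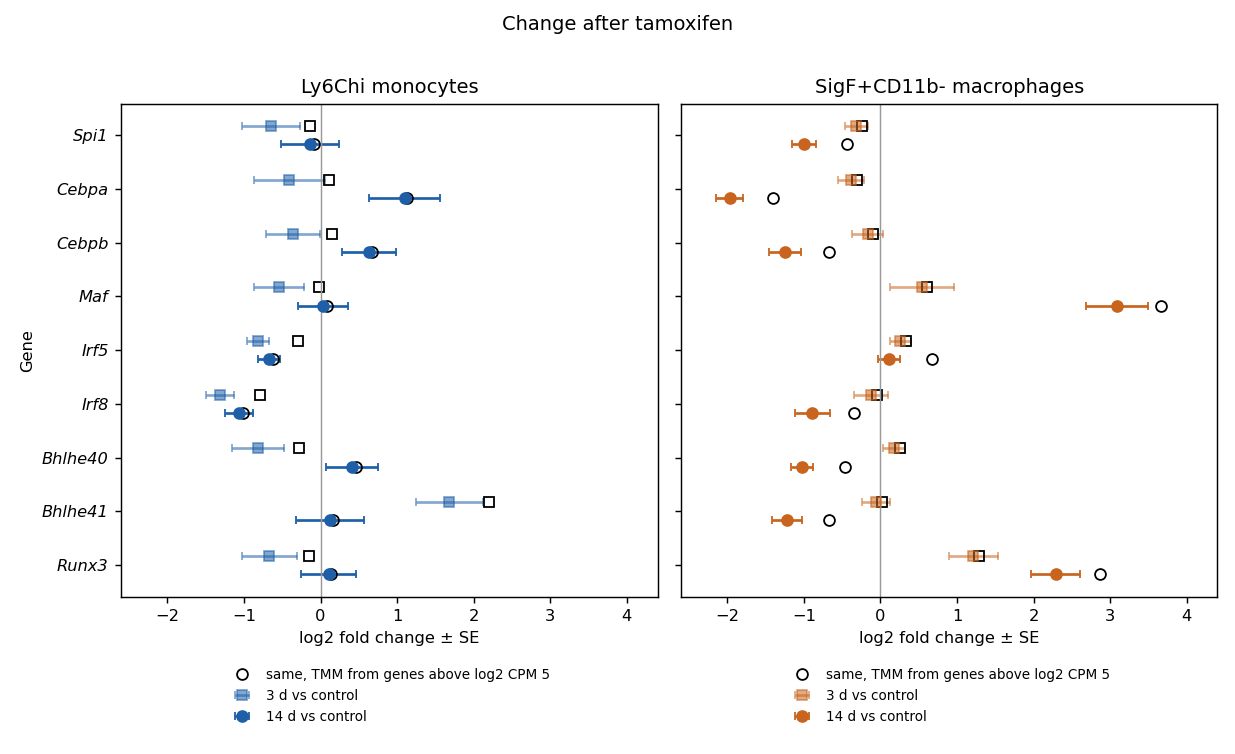
Log2 fold change against control (x axis, bars ± SE) of each gene at 3 d (squares) and 14 d (circles) in monocytes (left) and macrophages (right). Open symbols use TMM factors from genes above a mean log2 CPM of 5. *Irf8* lies below 0 in monocytes at both times, and *Maf* (3.09) and *Runx3* (2.29) stand to the right in 14 d macrophages whereas *Cebpa* (-1.97) lies furthest to the left.

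In macrophages no member was called at 3 d, and 8 of 9 were called at 14 d, when 62.3% of all genes tested were called. At 3 d, 0 of 9 passed edgeR's test (1.27% of 20944 genes tested did, 1.05% higher and 0.224% lower), and DESeq2 called 1, *Runx3*. *Runx3* was 3.42, 3.50, 2.03 and 1.26 CPM in control and 5.59, 5.51 and 6.67 CPM at 3 d, with no overlap (log2 fold change 1.21 ± 0.32, adjusted p = 0.07908). It passed the threshold in DESeq2 (adjusted p = 0.01258), without the filter on low counts and without 3 d replicate 2. *Cebpa* (-0.39 ± 0.17, adjusted p = 0.321) and *Spi1* (-0.32 ± 0.15, adjusted p = 0.3639) did not pass at 3 d.

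At 14 d 8 of 9 members were called (62.3% of genes tested), 2 higher (39.4%) and 6 lower (22.9%). Among genes with a mean log2 CPM above 5, 5.15% were called higher and 47.8% lower. The largest change was a rise of *Maf*, from 2.19, 3.19, 2.43 and 1.33 CPM in control to 33.9, 10.6 and 14.0 CPM at 14 d. Its log2 fold change was 3.09 ± 0.41 (adjusted p = 2.151e-05). Of the 3 samples, replicate 1 stood highest, and the fold change without it was 2.38. *Runx3* rose to 14.4, 9.33 and 13.7 CPM at 14 d, which was 2.29 ± 0.32 on the log2 scale (adjusted p = 3.238e-05). Its 14 d values also lay above those at 3 d (log2 fold change 1.07 ± 0.34, adjusted p = 0.01211), a call that was lost when 3 d replicate 1, 3 d replicate 2 or 14 d replicate 1 was left out. Although they held fewer counts, the 14 d macrophage libraries had counts for 27699 to 30627 genes, against 21951 to 27616 in control. Both genes had few counts in control (20 to 42 for *Maf* and 19 to 50 for *Runx3*). The part of this wider detection in the rise of *Maf* and *Runx3* was not tested.

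The C/EBP factors fell. *Cebpa* was 844, 790.0, 802 and 1055 CPM in control, 727, 789.6 and 487 CPM at 3 d, and 225, 240 and 203 CPM at 14 d. The 3 values at 14 d lay far below the others, with a log2 fold change against control of -1.97 ± 0.18 (adjusted p = 1.147e-06). *Cebpb* went from 1149, 1369, 1434 and 1701 CPM in control to 729, 605 and 460 CPM at 14 d (-1.24 ± 0.21, adjusted p = 0.0001348). The repressor *Bhlhe41* went from 193, 173, 122 and 140 CPM to 67.0, 78.6 and 56.1 CPM (-1.22 ± 0.19, adjusted p = 8.196e-05), and *Bhlhe40* from 343, 368, 298 and 343 CPM to 192, 169 and 136 CPM (-1.03 ± 0.15, adjusted p = 3.321e-05). *Spi1* was tight in control macrophages, at 596 to 631 CPM, and was 312, 362 and 252 CPM at 14 d (-0.999 ± 0.15, adjusted p = 6.829e-05). *Irf8* fell from 150 to 172 CPM to 98.5, 114 and 48.2 CPM (-0.89 ± 0.23, adjusted p = 0.002913). *Irf5* did not pass, with 85.9 to 112 CPM in control and 92.7 to 119 CPM at 14 d (0.11 ± 0.14, adjusted p = 0.4894).

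With TMM factors from well expressed genes, 6 members were called at 14 d. *Maf* (log2 fold change 3.67), *Runx3* (2.86), *Cebpa* (-1.402), *Cebpb* (-0.67) and *Bhlhe41* (-0.67) stayed called in the same directions. *Irf5* was added as higher, at 0.67 (adjusted p = 0.000431), and *Spi1* (-0.44), *Bhlhe40* (-0.46) and *Irf8* (-0.35) no longer passed the fold or the test. Leaving out each of the 10 macrophage samples in turn left 8 calls each time. Against 3 d, 8 members were called at 14 d as well (56.4% of genes tested), 2 higher (36.3%) and 6 lower (20%), and with those TMM factors 5. Of well expressed genes 4.13% were higher and 42.6% lower.

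Ratios of members within a library do not depend on scaling. Per kb of exon, *Maf* relative to *Bhlhe41* was 0.00775 to 0.0162 in control macrophages, 0.0127 to 0.0257 at 3 d and 0.110 to 0.412 at 14 d, and 7.73 to 21.96 in control monocytes. *Cebpa* relative to *Spi1* was 1.29 to 1.75 in control macrophages and 0.677 to 0.825 at 14 d, with no overlap, so that *Cebpa* changed more than *Spi1*. *Cebpb* relative to *Spi1* overlapped, at 3.46 to 4.95 and 2.99 to 4.19. *Irf5* relative to *Spi1* went from 0.130 to 0.174 in control up to 0.295 to 0.355. *Bhlhe41* relative to *Bhlhe40* overlapped between control (0.285 to 0.394) and 14 d (0.245 to 0.325) macrophages. In monocytes that last ratio was 0.00368 to 0.00814 in control, 0.0236 to 0.0827 at 3 d and 0.00327 to 0.00858 at 14 d.

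Markers of other cells moved with the 14 d macrophages. The sum of 12 alveolar macrophage markers, all above 3 counts, was 11940 to 12870 CPM in control, 12180 to 12810 at 3 d and lower at 14 d, 4206 to 6204. For 8 Ly6Chi monocyte markers the sum was 37.8 to 67.2 CPM in control, then 103 to 242 and 141 to 340 CPM, and was 8956 to 16180 CPM in monocytes. That of 10 neutrophil markers was 69.6 to 214 CPM in control, where *Camp* and *Ly6g* were at or under 3 counts, and 416 to 1608 at 14 d. Eosinophil markers (4 genes) went from 0.66 to 1.90 CPM, with *Epx* at or under 3 counts, to 28.4 to 107 CPM, and 8 endothelial and fibroblast markers from 23.6 to 36.1 to 161 to 331 CPM. B cell markers (5 genes) were 59.1 to 161 CPM in control, 189 to 579.9 at 3 d and 101 to 180 at 14 d, and 7 epithelial markers 241 to 348, 647 to 967 and 174 to 259.7 CPM. NK and T cell markers overlapped, at 18.4 to 54.5 CPM in control and 25.2 to 46.7 at 14 d. At 14 d, *Maf* and the monocyte marker sum were 33.9 and 340 CPM in macrophage replicate 1 and 10.6 and 261 CPM in replicate 2. In replicate 3 they were 14.0 and 141 CPM. In monocytes, the sum of 8 dendritic cell markers was 237 to 381 CPM in control, 34.8 to 194 at 3 d and 119 to 195 at 14 d. Between groups it was lower after tamoxifen, as was *Irf8*. Within control, replicate 3 had the highest *Irf8* (791 CPM) and the lowest sum (237). At 3 d replicate 4 had the lowest *Irf8* (181 CPM) and the highest sum (194). At 14 d replicate 1 was lowest in both (271 and 119 CPM). The sum of B cell markers was 74.1 to 107, 30.7 to 47.1 and 23.6 to 49.3 CPM at these times, and that of neutrophil markers 204 to 303, 229 to 1381 and 701 to 1540 CPM. In bulk samples fewer cells of a type and less RNA per cell cannot be told apart, and the part of other cells in the changes of the members was not tested.

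**Figure D4:**
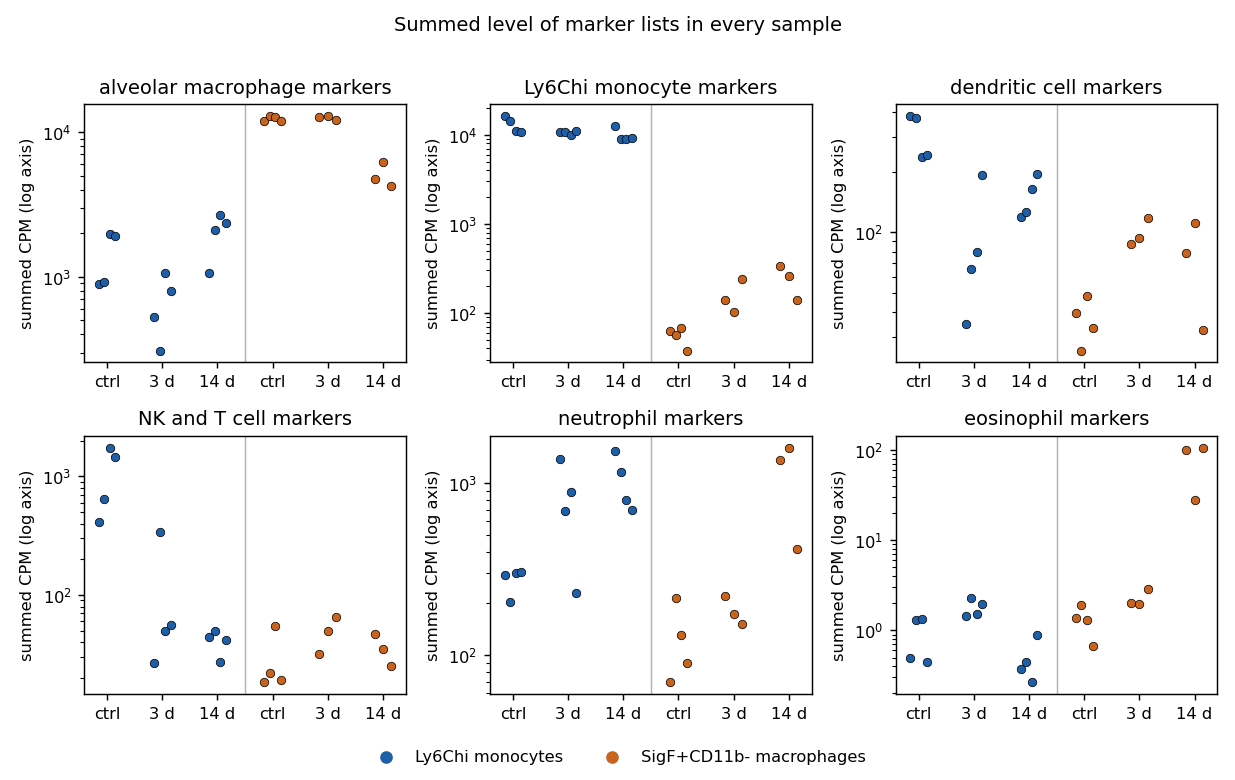
Summed CPM (log axis) of 6 marker lists in every sample, with monocytes in blue and macrophages in orange. Alveolar macrophage markers fall to 4206 to 6204 CPM in 14 d macrophages while neutrophil and eosinophil markers reach 416 to 1608 and 28.4 to 107 CPM, and NK and T cell markers are highest in control monocytes (410 to 1746 CPM).

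The changes at 14 d differed between the cell types for 7 of 9 members (36.8% of 26692 genes tested), as tested by the interaction, given here as the macrophage change minus the monocyte change. *Maf* (2.73 ± 0.55, adjusted p = 0.000625) and *Runx3* (1.87 ± 0.53, adjusted p = 0.008971) had the more positive change in macrophages (16.9% of genes tested). *Cebpa* (-3.41 ± 0.59, adjusted p = 0.000286), *Cebpb* (-2.21 ± 0.47, adjusted p = 0.001338), *Bhlhe40* (-1.78 ± 0.41, adjusted p = 0.002061), *Bhlhe41* (-1.66 ± 0.44, adjusted p = 0.004961) and *Spi1* (-1.21 ± 0.46, adjusted p = 0.04555) had the more negative change in macrophages (19.9%). None of these 5 was called in 14 d monocytes, where *Cebpa*, *Cebpb*, *Bhlhe40* and *Bhlhe41* had positive values (0.12 to 1.10). Well expressed genes had a median of -0.85 in this contrast, 4.1% of them being called with a more positive and 55.5% with a more negative change. With TMM factors from them, *Cebpa* (-2.52), *Cebpb* (-1.34), *Maf* (3.57) and *Runx3* (2.73) were still called, *Irf5* was added (1.30, adjusted p = 6.6e-05), and *Bhlhe40*, *Bhlhe41* and *Spi1* were not called. The call of *Spi1* held in 10 of 22 fits that each left out a sample. *Runx3* at 14 d had an adjusted p of 0.05017 with pairs of samples of the same number as a block within each time.

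At 3 d the changes differed for 4 members (18.7% of genes tested), 3 positive (3.51%) and 1 negative (15.2%). Of well expressed genes 10.8% were called positive and 0.898% negative. The values were 1.00 ± 0.29 for *Irf8* (adjusted p = 0.02178), 0.90 ± 0.20 for *Irf5* (adjusted p = 0.005364), 1.73 ± 0.53 for *Runx3* (adjusted p = 0.02857) and -1.91 ± 0.42 for *Bhlhe41* (adjusted p = 0.004563). *Runx3* was lost with the block within each time (1.41, adjusted p = 0.1724), and it was also lost without monocyte control replicate 4. With TMM factors from well expressed genes *Irf5* and *Bhlhe41* were called.

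Between the cell types, the distance at 14 d was smaller than in control for *Cebpa*, *Cebpb*, *Bhlhe41*, *Maf* and *Runx3* and larger for *Spi1*, as the interactions above gave. At 3 d 8 members differed (63.1% of genes tested), 4 higher in macrophages (20.4%) and 4 lower (42.7%). At 14 d also 8 differed (63.7%), 3 higher (40.4%) and 5 lower (23.3%). Of well expressed genes 31.1% were higher and 28.1% lower in macrophages at 3 d, and 10.6% and 64.9% at 14 d. *Cebpa* was 2.41 ± 0.42 higher in macrophages on the log2 scale at 14 d (adjusted p = 6.989e-05) and *Cebpb* 3.34 ± 0.35 (adjusted p = 6.62e-08). *Bhlhe41* differed by 4.88 ± 0.33 (adjusted p = 7.514e-12), against 6.54 in control. *Spi1* was lower in macrophages at 14 d (-1.67 ± 0.35, adjusted p = 0.000382), and with library size scaling or TMM factors from well expressed genes it was not called and the count of 8 became 6. *Maf* did not pass at 14 d (-0.66 ± 0.40, adjusted p = 0.1473), where it turned to 0.35 with TMM factors from well expressed genes and 0.44 with library size scaling. Without macrophage 14 d replicate 1, *Maf* was called lower in macrophages (-1.35). *Bhlhe40* was called lower in macrophages (-0.77 ± 0.30, adjusted p = 0.02982), although the groups overlapped, and it turned to 0.27 and 0.34 under those same scalings. With the replicate block it was -0.59 (adjusted p = 0.05887), with the block within each time -0.598 (adjusted p = 0.09818) and in DESeq2 -0.38 (adjusted p = 0.2458), none of them called.

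**Figure D5:**
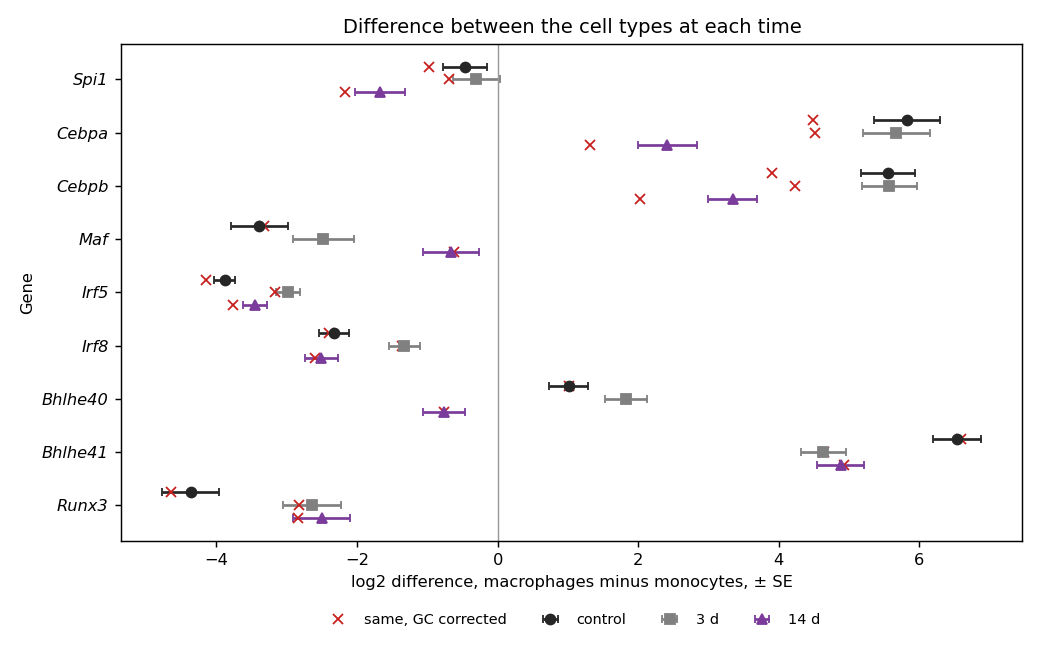
Log2 difference between macrophages and monocytes (x axis, positive where macrophages are higher, bars ± SE) of each gene in control (circles), at 3 d (squares) and at 14 d (triangles), with crosses for the GC-corrected value. *Cebpa* moves from 5.82 in control to 2.41 at 14 d, *Maf* from -3.39 to -0.66, and the crosses for *Cebpa* and *Cebpb* lie to the left of the uncorrected values.

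Of 20 genes of the same families or partners, 14 were called in 14 d macrophages, 3 higher and 11 lower, with a median log2 fold change of -0.66, beside 0.18 for all genes and -0.56 for well expressed genes. Of all genes tested there, 62.3% were called, 39.4% higher and 22.9% lower, and of well expressed genes 47.8% were lower. *Runx1* went against *Runx3*, from 240.0 ± 26.5 to 84.2 ± 12.3 CPM (-1.51 ± 0.22, adjusted p = 5.114e-05), and *Cbfb*, the shared partner of RUNX factors, was 170.2 ± 17.03 and 93.6 ± 2.53 CPM. *Cebpg*, which lacks an activation domain and dimerises with other C/EBP factors, fell with *Cebpa* and *Cebpb* (-2.11 ± 0.18, adjusted p = 5.987e-07). *Cebpe*, a granulocyte factor, was 0.13 ± 0.095 CPM in control, at or below the 3 count limit (0.176 to 0.208 CPM), and 22.4 ± 10.4 CPM at 14 d. *Irf4* overlapped between the times in macrophages.

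In monocytes 7 of the 20 were called at 3 d, 1 higher and 6 lower (51.2% of all genes tested were called), and 8 at 14 d, 1 higher and 7 lower (8.56%). Of well expressed genes, 42.0% were lower at 3 d and 12.5% at 14 d, and 1.15% and 4.28% higher. The interferon-induced *Irf7* was 804 ± 161 CPM in control, 560 ± 181 at 3 d and 112 ± 14.4 at 14 d (log2 fold change at 14 d -2.84 ± 0.23, adjusted p = 8.648e-06). *Irf1* fell at both times (-1.05 ± 0.19 at 3 d, adjusted p = 0.001142, and -1.80 ± 0.20 at 14 d, adjusted p = 5.978e-05), and *Irf2* fell at 3 d (-1.12 ± 0.15, adjusted p = 0.0003325). *Irf7* and *Irf9* were also far lower in control macrophages than in control monocytes (-6.85 ± 0.47 and -3.26 ± 0.18).

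Of 35 other myeloid transcription factors, 22 were called in 14 d macrophages, 6 higher and 16 lower (median log2 fold change -0.44), beside 62.3% of all genes tested. Of well expressed genes 5.15% were higher and 47.8% lower. *Pparg*, which alveolar macrophages need to mature, was 240 ± 46.5 CPM in control, 174 ± 21.2 at 3 d and 105 ± 10.99 at 14 d. Its partner *Rxra* fell at 14 d (-1.37 ± 0.18, adjusted p = 1.751e-05), as did *Egr2* (-1.83 ± 0.20, adjusted p = 4.354e-06). *Gata2* rose already at 3 d, from 2.16 ± 0.26 to 31.3 ± 10.9 CPM (3.84 ± 0.26, adjusted p = 2.192e-06), and was 12.6 ± 2.23 CPM at 14 d. At 3 d 2 of the 35 were called in macrophages, both higher (1.27% of all genes). In monocytes 21 were called at 3 d, 2 higher and 19 lower, with a median of -0.84 (51.2% of all genes), and 8 at 14 d, 2 higher and 6 lower (8.56%). Of well expressed genes in monocytes, 1.15% were higher and 42.0% lower at 3 d, and 4.28% and 12.5% at 14 d. *Nr4a1*, which non-classical monocytes depend on, fell from 1434 ± 292 CPM to 293 ± 67.2 at 3 d and 298 ± 97.8 at 14 d (-2.29 ± 0.24, adjusted p = 0.0001383, and -2.26 ± 0.24, adjusted p = 4.656e-05). The related *Mitf* and *Tfec* rose at 14 d (1.397 ± 0.27, adjusted p = 0.004233, and 2.36 ± 0.35, adjusted p = 0.0005903).

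Genes on which these factors are known to act were taken as a list of 22. In 14 d macrophages 7 were called higher and 9 lower (median log2 fold change -0.09), beside 39.4% and 22.9% of all genes tested and 5.15% and 47.8% of well expressed genes. The complement genes *C1qa*, *C1qb* and *C1qc*, known targets of c-MAF, rose from 1.90 ± 1.58, 1.45 ± 1.403 and 0.68 ± 0.51 CPM to 124.0 ± 54.6, 165 ± 61.3 and 83.7 ± 30.9 CPM. The integrin *Itgam*, which encodes the CD11b on which these cells were sorted as negative, rose from 1.76 ± 0.89 to 76.3 ± 24.1 CPM (5.45 ± 0.57, adjusted p = 4.422e-05). *Mrc1* (-1.63 ± 0.18, adjusted p = 3.63e-06) and *Mpeg1* (-1.37 ± 0.20, adjusted p = 4.05e-05) fell. *Csf1r*, a classic target of PU.1, was 319.6 ± 18.2 CPM in control and 322 ± 23.4 at 14 d, and *Csf2ra*, a receptor chain for GM-CSF, 324 ± 35.6 and 219.5 ± 44.7 CPM. In monocytes *Csf1r* fell from 3526 ± 985 CPM to 1482 ± 431 at 3 d and 1826 ± 239 at 14 d (-1.25 ± 0.22, adjusted p = 0.001017, and -0.95 ± 0.22, adjusted p = 0.01368). Of the 22, 11 were called at 3 d, 1 higher and 10 lower, beside 36.8% and 14.4% of all genes. Well expressed genes were higher in 1.15% and lower in 42.0% of cases. At 14 d 5 were higher and 3 lower in monocytes (3.22% and 5.34% of all genes, 4.28% and 12.5% of well expressed genes). The 3 *C1q* genes led with log2 fold changes of 3.86 to 4.64, while *Maf* itself did not pass (0.04 ± 0.33, adjusted p = 0.966).

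The genes with the most similar log2 CPM to each member were found over the 22 samples of both cell types together, so that a difference between the cell types enters each correlation. *Cebpa* and *Cebpb* followed each other (Pearson's r = 0.99), and *Irf5* was closest to *Ly86*, a cofactor of the toll-like receptor CD180 (r = 0.994). *Irf8* was closest to *Tpst2* (0.978), *H2-D1* (0.974) and *Ccm2* (0.97). *Bhlhe40* was closest to *Bcl2a1a* (0.975), *Bcl2a1d* (0.964) and *Bcl2a1b* (0.941), near-identical copies of a survival gene whose reads could be split between them. *Spi1* was closest to *Ostf1* (0.987), *Maf* to *Tmem37* (0.941), *Bhlhe41* to Gm26728 (0.989) and *Runx3* to *Lifr* (0.971). These are descriptions over 22 samples with no test.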

How the data were processed

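mRNA of 22 samples, 12 of Ly6Chi monocytes and 10 of SigF+CD11b- macrophages, had been sequenced as paired-end reads. The authors deposited raw read counts per Ensembl gene, without normalization, for each cell type, with 55421 genes for monocytes (6505 with no count) and 31134 for macrophages. The submitters' processing notes list STAR 2.7.2c and 2.7.3a, featureCounts 1.6.3 and DESeq2 1.26.0 and 1.28.1, with no role or order, and GRCm38, and the strand setting is not given in the sources used here. Gene models and exonic lengths were GENCODE's on GRCm38 and promoters those of RefSeq.

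The tests used edgeR 4.0.16 in R 4.3.3 (filterByExpr, TMM, robust quasi-likelihood test, two-sided, Benjamini-Hochberg over all genes tested), for each cell type over its 3 groups and, for differences between cell types, over 22 samples. Genes were called at an adjusted p under 0.05 and a fold above 1.5, and SE is the absolute log2 fold change over the square root of F. CPM used TMM factors and log2 CPM a prior count of 2. The floor of 3 counts was 0.104 to 0.194 CPM in monocytes and 0.176 to 0.651 in macrophages, and covers counting error only. Named are the members, *Runx1*, *Irf4*, *Cbfb*, *Pparg*, *Csf1r* and *Csf2ra*, and called genes of 3 lists (up to 4 for each comparison and direction, by size of change, with no overlap between groups), and per member the 3 genes of highest correlation. A further gene that this rule names is not reported here. The members and lists were chosen with earlier results of these data known.

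Alternatives were DESeq2 1.42.0, other scalings (library size, upper quartile, TMM from genes above a mean log2 CPM of 5), other filters on low counts, fits without the remaining group, calls by adjusted p with no fold limit, the replicate number as a block, ordinary in place of robust dispersion, and leaving out each sample. A GC correction and a block within time points were added after the data were seen. Whether replicate numbers pair samples was checked by correlating deviations from group means. Same-numbered monocyte and macrophage samples correlated at 0.157 to 0.219 in control (4 pairs) and 0.106 to 0.142 at 3 d (3 pairs), but at 0.002 to 0.069 at 14 d. The fit with a block within time points took them as paired at every time, 14 d included. Numbers are those of the sample titles. The numbers in the sample descriptions differ between the cell types at 14 d and for 3 d replicate 3. The main fit has no block. No 2 libraries agreed within sampling noise. Tested on simulated data for 14 d against control, with 200 genes changed, the fit recovered 45.9% of 2-fold and 80.4% of 4-fold changes in macrophages and 20.8% and 62.5% in monocytes. Of all calls made there, 7.3% (19208 genes tested) and 3.41% (20422 genes tested) were of genes that had not been changed. The simulated data held no shift of well expressed genes and few changed genes. In the data 62.3% of genes were called in 14 d macrophages and 8.56% in 14 d monocytes, so these rates need not hold there.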

Additional observations from a re-analysis of the deposited data

Results flagged for a closer look

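The 36 sets of 4 values (each member in each group of 4 samples) were tested for an outlying sample, and chance flags about 1 in 20. *Runx3* in 3 d monocytes stood out, where replicate 4 had 16.9 CPM and the others 27.8 to 28.4. That library also had the lowest deviation of GC-rich genes at 3 d (-0.923).

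Changes that differed between macrophages and monocytes by the interaction also call for a closer look. At 3 d these were *Irf5* (0.90), *Irf8* (1.00), *Bhlhe41* (-1.91) and *Runx3* (1.73). At 14 d they were *Spi1* (-1.21), *Cebpa* (-3.41), *Cebpb* (-2.21), *Maf* (2.73), *Bhlhe40* (-1.78), *Bhlhe41* (-1.66) and *Runx3* (1.87), as log2 macrophage change minus monocyte change.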

How the results depend on the processing

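Of 300 recounts of called members under alternatives, 285 stayed within 1.5 times the reported count, and 15 did not. Of 2700 refitted changes of single members, 89 lost and 33 gained a call, 2 that were called turned sign (*Bhlhe40* between cell types at 14 d, 0.34 with library size scaling and 0.27 with TMM from well expressed genes), and 74 that were called in neither fit turned sign. Of 54 mean levels, 12 moved by more than 1 SD with library size scaling. For monocytes at 3 d the count was 5 with no filter on low counts, and 3 to 6 when leaving out samples. For monocytes at 14 d it was 1 with library size scaling (*Irf8*), and 2 to 2 when leaving out samples. Between 14 d and 3 d in monocytes it was 1 with library size scaling, with TMM from genes above a mean log2 CPM of 5 and with the filter above 1, 2 with upper quartile scaling, and 2 to 5 when leaving out samples. For macrophages at 3 d it was 1 with DESeq2 and with no filter, and 0 to 1 when leaving out samples, and for 14 d against 3 d it was 5 with TMM from well expressed genes. For the difference between cell types at 3 d it was 2 with library size scaling, with TMM from well expressed genes and with the filter above 1. The cause of these shifts was not tested. The replicate block gave 4, 2 and 4 members in monocytes (3 d, 14 d, 14 d against 3 d), 0, 8 and 8 in macrophages, 8, 8 and 7 between cell types (control, 3 d, 14 d) and 4 and 6 for the differences at 3 d and 14 d, adding *Bhlhe40* in monocytes at 3 d and losing *Bhlhe40* between cell types and *Spi1* in the difference at 14 d. Within cell types the labels give same-numbered samples nothing in common but the number. Same-numbered control and 14 d monocytes correlated at 0.013 to 0.53 (mean 0.326, and -0.107 for other pairs). Means for same-numbered samples in the remaining pairs of groups within a cell type ran from -0.168 to 0.079.

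Depth limits *Bhlhe41* in monocytes (14 to 129 counts) and *Maf* and *Runx3* in control macrophages (19 to 50 counts). With 3 or 4 samples a group, 2-fold changes are often missed in the simulations, so a member that was not called is not shown to be unchanged.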
